A study of Zea mays with 45 samples.

Results

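The maize gene thi2 codes for an enzyme of thiamine (vitamin B1) synthesis. It was chosen by name: all array spots whose probe annotation gives thi2 were taken, and the gene itself was picked because its ratios in Arrocillo, Cacahuacintle and Conico against W23 were already known to be large. It is 1 of 329 genes named on the arrays. In the annotation of the probes it stands under its Entrez number 542715, whose current symbol is LOC542715 and whose synonyms include thi2 and thi1-2. Its probes are 3 expressed sequence tags (ESTs, cDNA fragments spotted on glass), named here by their accessions AW313328, AW356013 and AW258120. The first of the 2 deposited tables holds each of them once, as 3 neighbouring spots, which makes 9 spots. In the second, AW258120 was printed at 2 places (copies 1 and 2), giving 4 probes and 12 spots. Probes were kept apart throughout.

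The product of thi2 is a thiamine thiazole synthase, a plastid enzyme that builds the thiazole ring of thiamine. Its relatives are THI4 in yeast and THI1 in Arabidopsis, and yeast THI4 gives up a sulfur atom of its own protein in the reaction. The thiazole is joined to a pyrimidine made on a separate branch, and the product is activated to thiamine diphosphate, the cofactor of pyruvate dehydrogenase, transketolase and deoxyxylulose phosphate synthase among others. Maize has a close paralogue, thi1, with probes AW313169 and AI855162 on the same arrays. Probes of cDNA can hybridise with RNA of a close relative, so how far each probe separates thi2 from thi1 is not known from these files.

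Leaf RNA of the inbred W23 and of 5 landraces was compared in pairs on spotted 2-colour arrays, each array giving 1 log2 ratio per spot. In the field comparisons, plants of all 6 lines grew outdoors, and from about 14 days after sowing, 7 days after germination, stood under polyester that removed UV-B (no UV-B), under cellulose acetate that let sunlight through (solar UV-B), or under UV-B lamps (supplemental UV-B). In the landrace comparisons, a landrace and W23 from the same treatment shared an array, either without UV-B or with supplementary UV-B. For Confite and Mishca the labels describe a greenhouse exposure to lamps of 8 h, with lamps behind polyester as the control. Some W23 labels name a stock with the alleles b and pl and others W23 alone, and both were taken as W23.

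The 45 deposited columns fall into 22 groups, and 36 columns are distinct. The other columns comprise 8 that repeat a column under the opposite channel order and 1 that is the mean of its group's other columns. Blank spots make up 4.02% to 72.6% of an array, and ratios were centred on each array's median. The sources do not say which RNA is on top of the ratio, so values are given by side (positive or negative) and not as higher or lower in a line. The arrays give ratios only, so the leaf identity of the RNA cannot be checked against marker levels. The labels do not state whether arrays of 1 group hold RNA of different plants, so p-values measure the spread between these arrays only. For each probe that spread was drawn partly from all probes tested, and in Confite and Mishca against W23 wholly. The labels do not tie arrays to a season, slide or scan.

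Against W23, the ratio of AW313328 was negative on every array of Arrocillo, Cacahuacintle and Conico. In Arrocillo the centred log2 ratios were -1.23 and -1.36 without UV-B and -2.29 and -1.23 with UV-B. The Cacahuacintle arrays gave -2.04, -1.89 and -2.31 without UV-B and -1.93 with it. In Conico the values were -1.15 and -1.85 without UV-B and -1.30 and -1.89 with UV-B. The 3 landraces overlapped, since the lowest Arrocillo array lay among those of Cacahuacintle, while the other Arrocillo arrays lay above all Cacahuacintle arrays.

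The EST AW356013 lay on the same side, closer to 0 and with less spread. Its ratios were -1.25, -0.95, -1.14 and -0.75 in Arrocillo, with the arrays without UV-B first. In Cacahuacintle they were -1.33, -1.15 and -1.45 without and -1.01 with UV-B. The Conico arrays gave -1.20 and -1.04 without and -0.88 and -1.05 with UV-B. Its SD over the 12 arrays was 0.20, against 0.43 for AW313328, and the ratio of AW313328 was the lower of the pair on 10 of the 12 arrays.

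**Figure D1:**
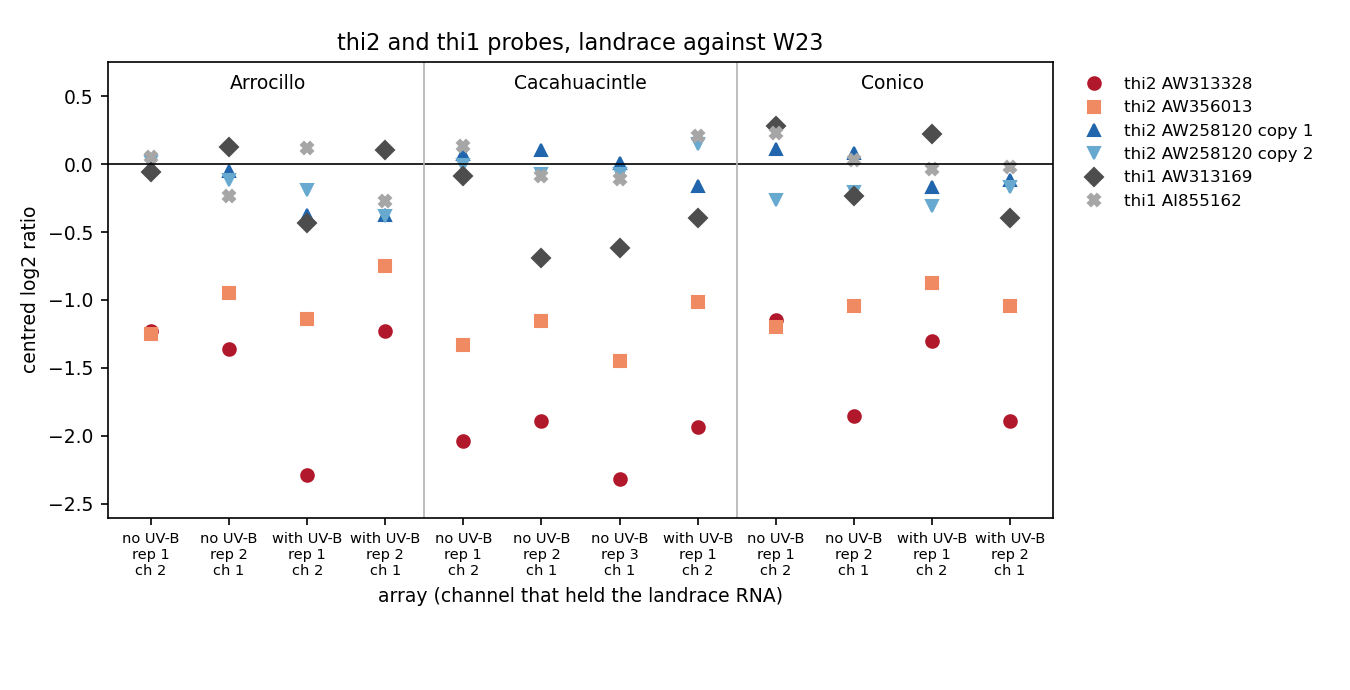
Centred log2 ratio of each thi2 and thi1 probe on the 12 arrays of Arrocillo, Cacahuacintle and Conico against W23, with the treatment, the replicate number and the channel of the landrace RNA under each array. The points of AW313328 lie between -2.31 and -1.15 and those of AW356013 between -1.45 and -0.75, while both copies of AW258120 and both thi1 probes stay above -0.70.

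A linear model with a coefficient for each landrace and treatment and a channel term gave means of -1.70 for AW313328 (SE 0.11, n = 12 arrays) and -1.07 for AW356013 (SE 0.07, n = 12), or 3.25-fold and 2.09-fold between the RNAs of a pair. For AW313328 the landrace means were -1.53 in Arrocillo (SE 0.17), -2.02 in Cacahuacintle (SE 0.20) and -1.55 in Conico (SE 0.17). For AW356013 they were -1.02, -1.14 and -1.04. Counted from the most negative, AW313328 had rank 4 and AW356013 rank 25 among 5353 probes, whose median mean was -0.01. Of 5123 probes measured on all 12 arrays, 167 (3.26%) were negative on every array, and 27 (0.527%) had an array mean of -1 or lower. The gene was chosen for these values, which are therefore a description without a test.

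The EST AW258120 did not share the pattern. Copy 1 of AW258120 ranged from -0.38 to 0.11 with a fitted mean of -0.09 (SE 0.06, rank 1700), and copy 2 from -0.39 to 0.15 with a mean of -0.12 (SE 0.06, rank 1391). The copies carry the same EST. Within an array, copy 1 minus copy 2 averaged 0.06 (SD 0.19, n = 12 arrays), with a range from -0.31 to 0.37. The mean size of this difference, its sign left out, was 0.15. On all 12 arrays AW313328 was lower than copy 1, by 0.85 to 2.32, a gap wider than that between the copies. AW356013 was lower than copy 1 on all 12 as well, by 0.37 to 1.45. Spots of 1 probe on 1 array lay closer together, with a median SD of 0.08 for AW313328 and 0.04 for AW356013. The widest triplet was AW356013 on the first Arrocillo array with UV-B, whose spots read -1.87, -0.75 and -1.74 before centring. On the first Conico array without UV-B, the value of AW313328 comes from 1 spot, the others being blank.

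The paralogue thi1, which codes for another thiazole synthase, lay closer to 0 than AW313328 on the same arrays. Its probe AW313169 ranged from -0.69 to 0.28 with a mean of -0.19 (SE 0.09, adjusted p = 0.132 from limma), and AI855162 from -0.27 to 0.23 with a mean of 0.01 (adjusted p = 0.944). In Cacahuacintle AW313169 was negative on all 4 arrays, with a fitted mean of -0.47 (SE 0.17, adjusted p = 0.101, limma), against -0.07 in Arrocillo and -0.03 in Conico; the test of a difference between these landraces gave adjusted p = 0.998. In this contrast 25.6% of all probes tested were called at an adjusted p under 0.05, and 0 of the 2 thi1 probes were, although AW313169 had an unadjusted p under 0.05.

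The side of the landrace ratios of AW313328 and AW356013 did not change with the channel order. With the landrace RNA in channel 1, AW313328 ranged from -2.31 to -1.23 over 6 arrays (mean -1.76, SD 0.40). With W23 in channel 1 it ranged from -2.29 to -1.15 over the other 6 arrays (mean -1.66, SD 0.49). The corresponding means of AW356013 were -1.06 (SD 0.23) and -1.13 (SD 0.17). Probes closer to 0 did change side between the orders. This held in 4 of 5 groups for thi1 AW313169, 3 of 5 for thi1 AI855162 and 1 of 5 for AW258120 copy 2. AI855162 averaged -0.12 with the landrace in channel 1 and 0.12 with W23 there. The channel term was -0.04 for AW313328 (SE 0.11, adjusted p = 0.814 from limma) and 0.07 for AW356013 (SE 0.07, adjusted p = 0.51), where 13.9% of all probes had a called channel term. Over all probes, arrays of opposite order correlated with a median r of 0.28 (34 of 36 pairs above 0), and arrays of the same order with a median r of 0.54. If the ratios instead followed the channel order, so that their sign had to be turned on the arrays with W23 in channel 1, the means would become -0.014 and 0.033.

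Whether the landrace ratio changed under UV-B was tested by setting the arrays with UV-B against those without it. For AW313328 the 5 arrays with UV-B ranged from -2.29 to -1.23 (median -1.89) and the 7 without from -2.31 to -1.15 (median -1.85), so the groups overlapped almost fully. The fitted difference was -0.15 (SE 0.21, 95% interval -0.62 to 0.31, adjusted p = 0.969 from limma). For AW356013 it was 0.23 (SE 0.14, interval -0.06 to 0.53, limma, adjusted p = 0.969). The copies of AW258120 gave -0.27 (interval -0.53 to -0.01) and -0.03 (interval -0.29 to 0.24), with adjusted p = 0.969 and 0.989 from limma. For copy 1 the arrays with UV-B (-0.38 to -0.12) all lay below those without (-0.05 to 0.11), and for copy 2 the groups overlapped. Of 5123 probes measured on all 12 arrays, 10 (0.195%) had groups that did not overlap, in either direction. By limma, 0 of 5353 probes (0%) were called in this contrast, and 257 had an unadjusted p under 0.05. The labels give Cacahuacintle 3 arrays without and 1 with UV-B, where the other landraces have 2 of each.

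Confite and Mishca against W23 were measured on the first table, on arrays that had no part in the choice of the gene. AW313328 was measured on 5 of the 7 distinct arrays, too few for the model. In Mishca its ratio was -1.05 without UV-B, in a column deposited under both channel orders. With UV-B the Mishca arrays gave -0.70 and 0.73, the first with W23 and the second with Mishca in channel 1. Confite gave -0.02 without and -0.86 with UV-B, both with W23 in channel 1, and both Confite arrays with the landrace in channel 1 were blank at this EST. The 2 sides were thus both present, and the side went with the channel order on the Mishca arrays with UV-B. With the sign turned by channel order, the 4 values of a single order lie between 0.02 and 0.86; the value of the column deposited under both orders has no settled sign.

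Neither of the other thi2 ESTs was called in Confite and Mishca. AW356013, so far from 0 in the other landraces, ranged from -0.13 to 0.15 on 6 arrays, with a fitted mean of 0.02 (SE 0.20, 95% interval -0.38 to 0.41, adjusted p = 0.996 from limma). AW258120 was negative on 6 of 7 arrays, all 3 of Mishca included, and ranged from -0.48 to 0.18 with a mean of -0.22 (SE 0.18, interval -0.56 to 0.13, adjusted p = 0.996, limma). Turned by channel order, 2 of its 6 values of a single order were negative. In this comparison 1.63% of 2089 probes tested were called. The interval of AW356013 does not reach the mean of -1.07 seen in the other landraces. It rests on a spread common to all probes tested, while the SD of this EST over its own 6 arrays was 0.12. The 2 sets of landraces come from separate tables and the difference between them was not tested. Arrays with UV-B differed from those without by -0.09 for AW356013 and 0.33 for AW258120 (adjusted p = 1 for both, limma), in a contrast that called 0.0957% of probes.

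**Figure D2:**
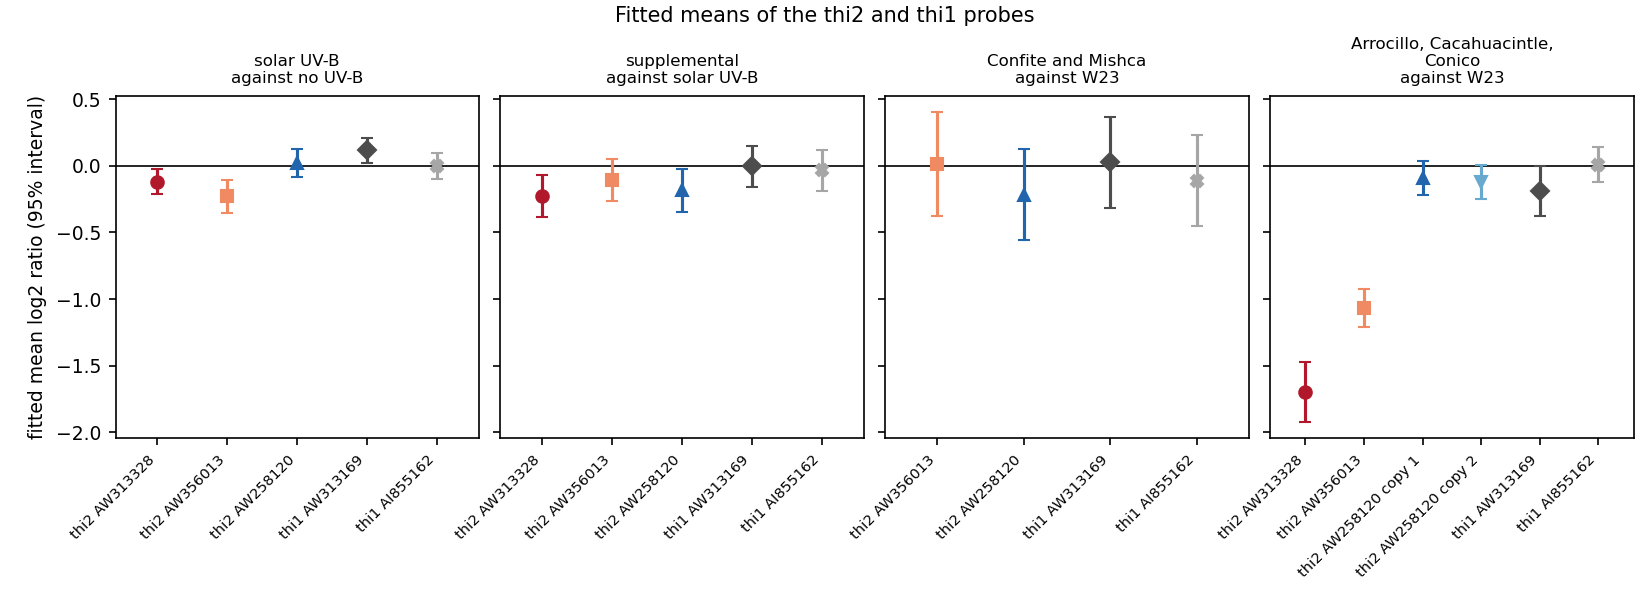
Fitted mean log2 ratio of each thi2 and thi1 probe in the 4 comparisons, with 95% intervals from limma; AW313328 could not be fitted in Confite and Mishca. In the panel of Arrocillo, Cacahuacintle and Conico, AW313328 (-1.70) and AW356013 (-1.07) stand apart, and the other means in all panels lie between -0.23 and 0.12.

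The direction of the ratios is not settled in the UV-B comparisons. Over all probes, solar arrays of opposite order correlated with a median r of -0.11 and 3 of 9 pairs were below -0.3, against a median of 0.34 for arrays of the same order. In supplemental UV-B all 4 pairs of opposite order were below 0 (median -0.21) and both pairs of the same order were at 0.41 or above. Values are therefore given as deposited and then turned, with the sign changed on arrays that have the first-named RNA in channel 2. The columns deposited under both orders, 3 of 9 in solar and 4 of 8 in supplemental UV-B, can be turned either way, so turned values per array are given for the other columns. Turned array means over all columns are given under both labels of those columns. Which reading holds was not tested.

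Solar UV-B was compared with no UV-B within each of the 6 lines. For AW313328 the arrays of W23 gave 0.47 and -0.86, those of Conico 0.90 and -0.27 and those of Mishca -0.13 and -1.39. The single distinct arrays of Arrocillo, Cacahuacintle and Confite gave -0.41, 0.12 and 0.20. Positive and negative values occurred in the same line for W23 and Conico, and the second Mishca array was the most negative of 5433 probes measured on it, which turned would be the most positive. The fitted mean over lines was -0.12 (SE 0.04, 95% interval -0.22 to -0.03, n = 9 arrays, adjusted p = 0.0569 from limma), which missed the threshold. It became -0.31 (limma, adjusted p = 0.0104) when each section of consecutive spots was centred on its own median (1626 of 4239 probes called). Turned by channel order, it was 0.23 or 0.39 under either label of the columns of both orders (limma, adjusted p = 0.693 and 1.00). The 6 turned values of a single order ranged from -0.13 to 1.39, and the array mean over all columns was 0.36 or 0.47.

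As deposited, AW356013 was negative on 8 of the 9 solar arrays; turned, 2 of the 6 arrays of a single order were negative. Its values were 0.21 and -0.01 in W23, -0.15 and -0.10 in Conico, -0.41 and -0.17 in Mishca, and -0.41, -0.48 and -0.16 on the single arrays of Arrocillo, Cacahuacintle and Confite. The mean of -0.23 (SE 0.05, interval -0.35 to -0.10, adjusted p = 0.0207, limma) was called, in a contrast that called 35% of the 4239 probes tested. The call was lost with sections centred (-0.14, adjusted p = 0.109) and without the Cacahuacintle array (-0.18, adjusted p = 0.0534) or the first Conico array (-0.22, adjusted p = 0.0513). It was lost as well with turned ratios, at -0.13 (adjusted p = 0.666) or 0.11 (adjusted p = 1.00). AW258120 averaged 0.02 (interval -0.08 to 0.12, adjusted p = 0.722), and its 6 turned values of a single order were all positive, from 0.01 to 0.23.

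No single line was called for any thi2 EST under solar UV-B. As deposited, the largest line value was that of AW313328 in Mishca, -0.76 (SE 0.08, adjusted p = 0.125, limma), where 0.0236% of probes were called, followed by -0.48 for AW356013 in Cacahuacintle (SE 0.14, adjusted p = 0.0901, 7.17% called). Turned, the mean of the 2 AW313328 arrays was 0.66 in W23, 0.63 in Mishca and 0.58 in Conico, so Mishca no longer stood first. The shares called for the other lines were 0.543% in Arrocillo, 6.63% in Confite, 4.67% in Conico and 23.8% in W23. The test of a difference between lines gave F = 24.5 for AW313328 (adjusted p = 0.0566), with 0.0236% of probes called. It passed the threshold without the Confite array (adjusted p = 0.0479, limma) or either W23 array (adjusted p = 0.000147 and 0.000174). The share of probes called in this test was not counted in those fits. For the mean over lines they called 897 of 4256 probes without Confite. Without the first or the second W23 array they called 2567 of 4235 or 2437 of 4032. The columns of Arrocillo, Cacahuacintle and Confite entered without a channel order, so a channel effect was not removed from them.

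**Figure D3:**
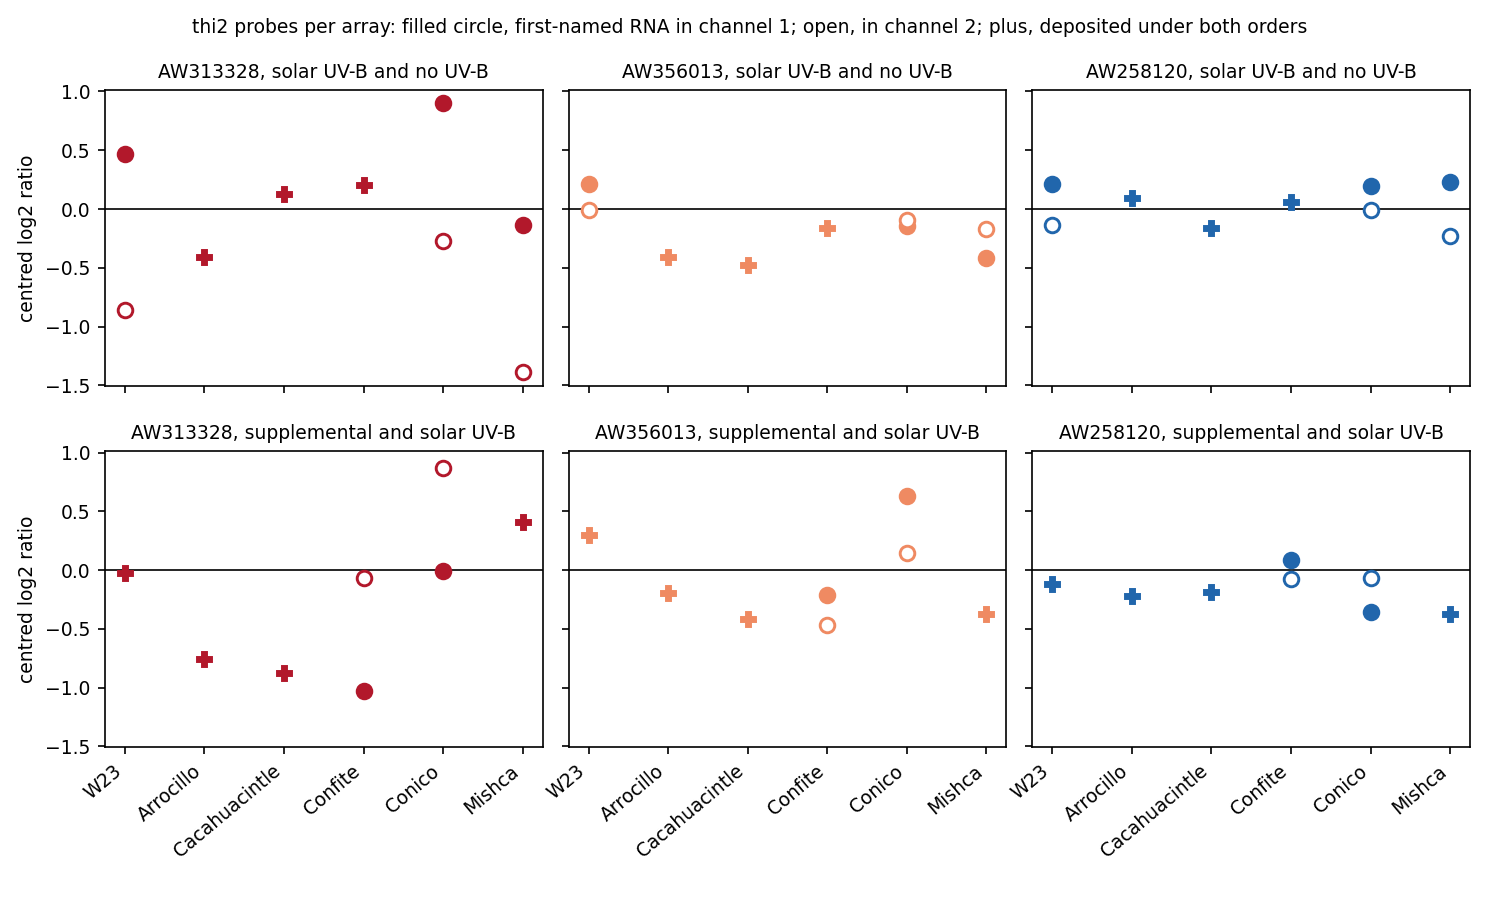
Centred log2 ratio of the 3 thi2 ESTs on each distinct array, by line, for solar UV-B and no UV-B (upper row) and for supplemental and solar UV-B (lower row). Filled circles have the first-named RNA in channel 1, open circles in channel 2, and plus signs are columns deposited under both orders; for AW313328 the open circles lie below the filled ones in all 3 solar pairs and above them in both supplemental pairs.

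Supplemental UV-B was compared with solar UV-B on 8 distinct arrays. AW313328 gave -1.03 and -0.07 in Confite, -0.01 and 0.87 in Conico, and -0.75, -0.88, 0.41 and -0.03 on the single arrays of Arrocillo, Cacahuacintle, Mishca and W23. The first Confite array placed it at rank 3 from the most negative of 5108 probes, and the Cacahuacintle array at rank 16 of 5419. The mean over lines was -0.23 (SE 0.07, interval -0.38 to -0.07, adjusted p = 0.0258 from limma) and was called, as were 31.7% of the 4744 probes tested. Without the Arrocillo array the mean was -0.12 (adjusted p = 0.253), without the Cacahuacintle array -0.10 (adjusted p = 0.369), and with the replicate number as a block in place of the channel term it was 0.08 (adjusted p = 0.581). With sections centred it was -0.09 (adjusted p = 0.218). Turned, it was -0.36 (adjusted p = 0.21) or 0.05 (adjusted p = 0.864), not called under either label. The 4 turned values of a single order ranged from -1.03 to 0.07, and the array mean over all columns was -0.38 or -0.07.

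As deposited, the lines fell on different sides for AW313328 under supplemental UV-B. Of the 6 lines Confite was called, at -0.55 (SE 0.14, adjusted p = 0.0477, limma, 2.13% of probes called), and Conico lay opposite at 0.43 (SE 0.14, adjusted p = 0.0914, 4.24% called). The 2 arrays lay 0.96 apart in Confite and 0.88 apart in Conico. The channel term, fitted from these pairs alone, takes up most of both gaps. The SE rests on 1 residual degree of freedom and on 16.9 from the spread shared by all probes. Turned, both lines were on the same side, with array means of -0.48 in Confite and -0.44 in Conico. Arrocillo at -0.75 and Cacahuacintle at -0.88 had adjusted p = 0.0837 and 0.0891, with 0.759% and 0.211% of probes called. Mishca stood at 0.41 (adjusted p = 0.103) where 41.5% of probes were called, and W23 at -0.03 (adjusted p = 0.982, 0.506% called). Arrocillo, Cacahuacintle, Mishca and W23 rest on columns deposited under both orders, which entered the model without a channel order. A channel effect of unsettled sign was thus not removed from their values. The SEs, the p-values and the test between lines do not include it. The difference between lines was called for AW313328 (F = 11.3, adjusted p = 0.00138) and for AW356013 (F = 4.69, adjusted p = 0.0325), as for 24.6% of all probes, and not for AW258120 (F = 0.53, adjusted p = 0.843). Neither difference was called with turned ratios under either label (adjusted p = 0.724 and 0.385 for AW313328, 0.811 and 0.872 for AW356013).

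For AW356013 the supplemental arrays gave 0.63 and 0.14 in Conico and -0.21 and -0.46 in Confite, so the arrays of these lines did not overlap as deposited. Turned, Conico ranged from -0.14 to 0.63 and Confite from -0.21 to 0.46, which overlap. The single arrays read -0.19 in Arrocillo, -0.41 in Cacahuacintle, -0.38 in Mishca and 0.30 in W23. Its mean of -0.11 (interval -0.26 to 0.05, adjusted p = 0.29, limma) was not called, nor was that of AW258120 at -0.18 (interval -0.34 to -0.03, adjusted p = 0.0714), which was negative on 7 of 8 arrays as deposited and on 1 of the 4 arrays of a single order when turned.

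AW313328 moved with the channel order in both UV-B comparisons. In solar UV-B, the array with the treated RNA in channel 1 was above its partner by 1.33 in W23, 1.17 in Conico and 1.26 in Mishca. Under supplemental UV-B the array with supplemental RNA in channel 1 was the lower one, by 0.96 in Confite and 0.88 in Conico. The channel term was 0.63 in solar UV-B (SE 0.04, adjusted p = 0.0101, limma, 28.9% of probes called) and -0.46 in supplemental UV-B (SE 0.10, adjusted p = 0.00398, 24% called). For AW356013 it was -0.01 and 0.18, with adjusted p = 0.889 and 0.182. AW258120 had a smaller called term in solar UV-B, 0.17 (adjusted p = 0.0456), and the thi1 probe AW313169 one of 0.22 (adjusted p = 0.0231).

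**Figure D4:**
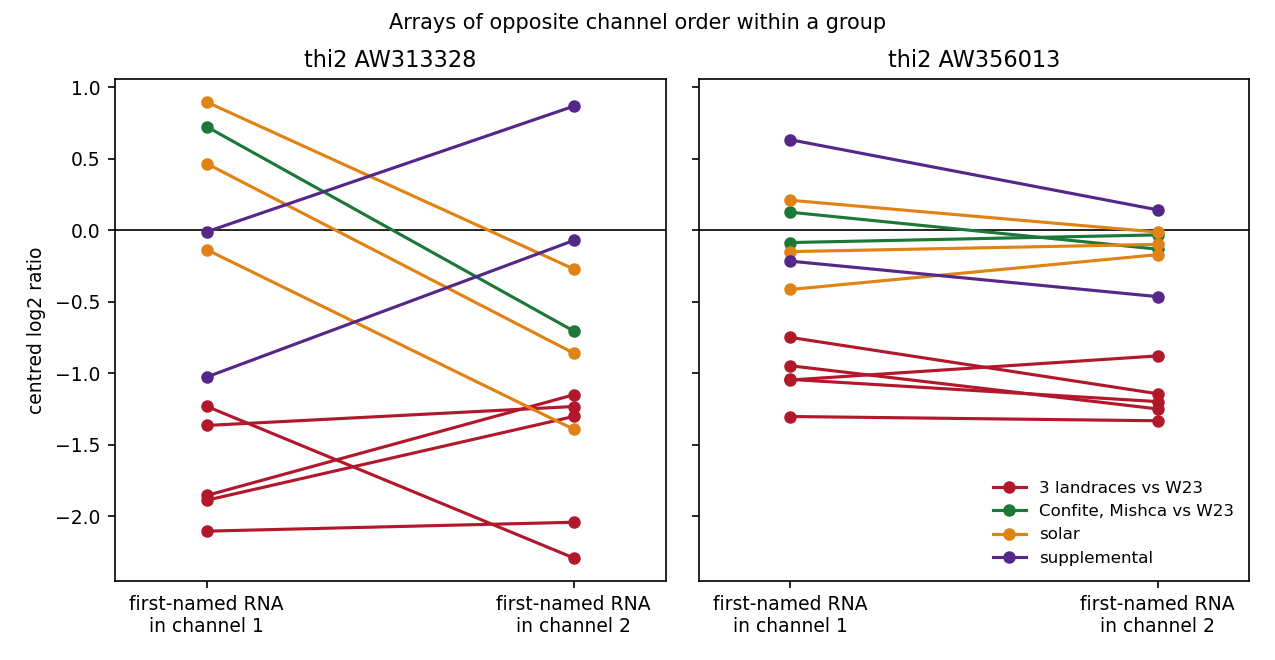
Centred log2 ratio of AW313328 (left) and AW356013 (right) on arrays of opposite channel order, 1 line for each group that holds both orders. For AW313328 the lines fall by 1.17 to 1.33 in solar UV-B and rise by 0.88 to 0.96 in supplemental UV-B, while the 5 lines of Arrocillo, Cacahuacintle and Conico stay at or below -1.15 at both ends, and Mishca against W23 with UV-B falls by 1.43, from 0.73 to -0.70; for AW356013 no line moves by more than 0.49.

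The 3 thi2 ESTs differed among themselves outside the landrace comparison too. The mean size of the gap between AW313328 and AW356013 on the same array, its sign left out, was 0.53 in solar and 0.59 in supplemental UV-B. With its sign kept, AW313328 minus AW356013 averaged 0.03 (SD 0.70) in solar and -0.11 (SD 0.64) in supplemental UV-B, as deposited. Across the 9 solar arrays, AW313328 correlated with AW258120 at r = 0.72 and with AW356013 at r = 0.09. Across the 8 supplemental arrays the values were -0.29 and 0.34. Turned, the solar values became 0.48 and 0.49 under the first label of the columns of both orders, or 0.23 and 0.05 under the second, and the supplemental ones -0.48 and 0.48, or 0.10 and 0.49. Across the 12 landrace arrays AW313328 and AW356013 had r = 0.51, and the copies of AW258120 had r = 0.33 with each other. These correlations share arrays and channel order and are given as description.

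Besides thi2 and thi1, the arrays held 3 genes of enzymes that use thiamine diphosphate, out of 18 symbols searched: dxs1 and dxs2, deoxyxylulose phosphate synthases of plastid isoprenoid synthesis, and pdh2, a pyruvate dehydrogenase subunit. In solar UV-B, dxs2 (0.13, adjusted p = 0.0396, limma) and pdh2 (0.17, adjusted p = 0.0222) were called on the positive side and dxs1 was not (0.07, adjusted p = 0.293), against 35% of all probes; with turned ratios 0 of all probes were called by limma under either label, with 379 and 53 at an unadjusted p under 0.05. The thi1 probes had means of 0.12 (adjusted p = 0.0654) and 0.00 (adjusted p = 0.987). In supplemental UV-B, 0 of these 3 genes and 0 of the 2 thi1 probes were called by limma, and 0 had an unadjusted p under 0.05, where 31.7% of all probes were called. In the 3 landraces against W23, dxs1 was called at 0.26 (SE 0.07, adjusted p = 0.011), on the positive side, while dxs2 at -0.02 and pdh2 at -0.03 were not; 1 of 3 called stands beside 25.6% of all probes. In Confite and Mishca, dxs2 was the only 1 of the 3 with enough values, at 0.35 (adjusted p = 0.84).

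The named genes whose values followed AW313328 most closely were found by Pearson r over distinct arrays. On the 12 landrace arrays, among 364 probes, thi1 AW313169 came first (r = 0.84), followed by NIR, a nitrite reductase (r = 0.82), lbl1, a gene of small RNA synthesis (r = 0.82), ATP-D (r = 0.80) and Zea m 3, a pollen allergen by its name (r = 0.75). Their mean ratios lay between -0.26 and 0.03, far from that of AW313328, so the likeness is in the order of the arrays and not in level. The lowest array of AW313328, the third of Cacahuacintle without UV-B, was also low for thi1 AW313169 (-0.62), as was the first Arrocillo array with UV-B (-0.43). The first Cacahuacintle array without UV-B departed from this, with -2.04 for thi2 and -0.08 for thi1. The difference between the 2 probes had an SD of 0.24, against 0.43 for AW313328 alone. The other thi1 probe, AI855162, followed neither AW313328 (r = -0.20) nor AW313169 (r = -0.03) on these arrays. The thi2 EST AW356013 had r = 0.44 with AW313169 and -0.41 with AI855162. The 22 arrays of the first table that measured AW313328 mix solar, supplemental and Confite and Mishca ratios, taken as deposited. Among 202 probes there, the highest were MADS11 (also Silky1, a floral MADS-box gene, r = 0.77) and the gene listed as aba1 or asr1 (r = 0.74). Next came aos1, an allene oxide synthase of jasmonate synthesis (r = 0.73), vpp3 (r = 0.70) and mgs2 (r = 0.69). Whether these genes share only the channel order of AW313328 was not tested. The median r over all probes compared was -0.02 on the second table and 0.10 on the first.

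**Figure D5:**
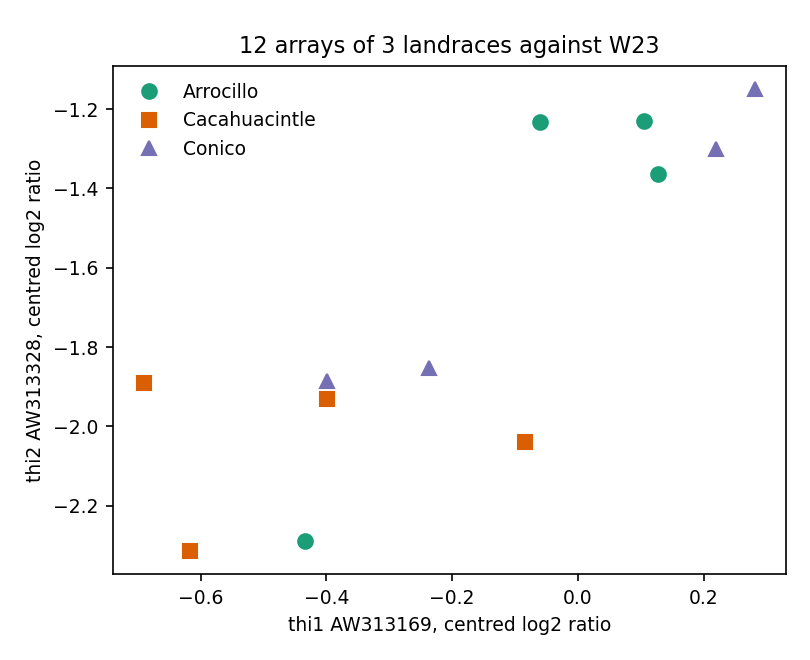
Centred log2 ratio of thi2 AW313328 against that of thi1 AW313169 on the 12 arrays of Arrocillo, Cacahuacintle and Conico against W23, 1 point for each array. The points run together (r = 0.84), with AW313328 lower than AW313169 on every array, by 1.17 to 1.96. The other thi1 probe, AI855162, is not drawn and had r = -0.20 with AW313328.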

How the data were processed

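Leaf RNA pairs were hybridised to spotted 2-colour cDNA arrays, and each deposited value is the log2 ratio of 1 spot on 1 array. Per the labels, the authors fitted analysis of variance models to base-2 log intensities and set a threshold on weak spots. The sources used here do not give the scaling of the log2 ratios or their numerator.

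The spots of each probe were averaged and the median of an array was subtracted from its values. A comparison took in probes with values on 75% or more of its arrays. They were fitted with limma 3.58.1 in R 4.3.3. The model had 1 coefficient for each line, or for each treatment of a landrace, plus the channel order, two-sided moderated tests and Benjamini-Hochberg adjustment over all probes tested. A call is an adjusted p under 0.05. Tests stayed within a table. Columns equal to another up to a constant (SD under 0.01) were counted once with a channel code of 0. No channel effect was therefore removed from these columns. A column within an SD of 0.05 of the mean of its group's other columns was left out. The fits left 2 residual degrees of freedom in solar UV-B, 1 in supplemental UV-B, 2 in Confite and Mishca and 5 in the other landraces. The spread shared by all probes added 3.84 degrees of freedom in solar UV-B, 16.9 in supplemental UV-B and 8.07 in the other landraces. In Confite and Mishca the added number was infinite, so all probes were tested with 1 common spread. The fit was tested on simulated data.

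Named genes are thi2, thi1, thiamine diphosphate enzymes on a list of symbols, and the 5 named genes per table with the highest r with AW313328. Annotation text was not searched, as the tables hold symbols only. The gene, the lists and the tests were chosen with earlier results of these data known. Names came from the platform annotation, which is old, updated by Entrez number through RefSeq (Zm-B73-REFERENCE-NAM-5.0, names only). Alternatives were other centring, scaling, filters, spot averages, weights, channel codes and lines, a replicate block and leaving out each array. Centring sections on lines with both channel orders, and turning repeated columns by their second label, were added after the data were seen.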

Additional observations from a re-analysis of the deposited data

Results flagged for a closer look

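In supplemental against solar UV-B, the lines differed for AW313328 (adjusted p = 0.00138, limma) and for AW356013 (adjusted p = 0.0325), as they did for 24.6% of all probes. This test has 1 residual degree of freedom and 16.9 from the spread shared by all probes. Lines with 1 array borrow the spread of the others. Their columns entered without a channel order, so a channel effect was not removed from their values. For AW356013 both Conico arrays were positive and both Confite arrays negative as deposited, with line means 0.73 apart; turned by channel order, the line means were 0.25 and 0.12 and the arrays overlapped. This pair of lines was not tested on its own. The difference for AW313328 was not called in 4 of 16 settings: with arrays scaled (F = 17.5, adjusted p = 0.0853), without the channel term (F = 2.395, adjusted p = 1.00) and with ratios turned by channel order (F = 1.23 or 2.43, adjusted p = 0.724 or 0.385). For AW356013 it was not called in 5 of 16: with arrays scaled (F = 6.01, adjusted p = 0.176), without the channel term (F = 1.92, adjusted p = 1.00), on lines with arrays of both orders (F = 13.2, adjusted p = 0.056) and with turned ratios (F = 0.93 or 0.53, adjusted p = 0.811 or 0.872). It was not called without the Mishca array either (F = 5.17, adjusted p = 0.0916). No group held 4 or more distinct arrays, so single arrays were not tested for standing apart within a group.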

How the results depend on the processing

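In Arrocillo, Cacahuacintle and Conico, the AW313328 mean lay between -1.83 and -1.60 when each array was left out, and AW356013 between -1.13 and -1.03. Of 10 other settings, 9 kept each of them within the array spread. The exception was the turning of ratios by channel order, which gave -0.014 for AW313328, 0.033 for AW356013 and 0.020 for AW258120 copy 1. Turned ratios gave 0.36, -0.050 and 0.038 for their differences with against without UV-B, 0.23 for AW313328 in solar UV-B, -0.36 in supplemental UV-B (no longer called), and 0.084 for AW258120 in Confite and Mishca. With the columns of both orders turned by their second label, solar UV-B gave 0.39 for AW313328 and 0.11 for AW356013, supplemental UV-B 0.054 for AW313328, 0.18 for AW356013 and 0.14 for AW258120, and Confite and Mishca -0.038 for AW356013. The cause of these shifts was not tested.

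AW313328 in solar UV-B was called at -0.31 with sections centred, -0.17 when scaled and -0.12 with weights. On lines of both orders the calls were -0.21 and, with sections centred, -0.27. Repeated columns gave a call by their first label (-0.22), none by their second. Leaving out an array gave -0.18 to -0.063, with 4 of 9 called (without Cacahuacintle, Confite or either W23 array). In supplemental UV-B its call was lost at -0.20 without centring and -0.090 with sections centred. It was lost at -0.23 without the channel term or with repeated columns counted as arrays. Lines with both orders lost it at -0.059, and at -0.087 with sections centred. The mean ran from 0.079 with the first label of the repeated columns to -0.53, still called, with the second. Under that second label 1405 of 4744 probes were called. Leaving out an array gave -0.35 to -0.097. Only 4 of its 8 arrays could be left out in turn, since the others leave no degrees of freedom.

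Replicate numbers 1 and 2 have opposite channel orders in 13 of 13 groups, so the number stands for the order and pairs no samples. The replicate block was therefore fitted in place of the channel term. It gave -0.43 for AW313328 (called, as were 288 of 4239 probes) and -0.064 for AW258120 in solar UV-B. It gave 0.079 for AW313328 in supplemental UV-B, and -0.036 for AW356013 in Confite and Mishca.

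AW356013 in solar UV-B lost its call under 8 of 17 settings, the turned one above included (range -0.26 to 0.11), and the difference between lines of AW313328 there gained one under 6 of 17. AW258120 turned to -0.037 in solar UV-B with sections centred, -0.097 with these and only lines of both orders, and -0.0072 with the first label, and to 0.019 in supplemental UV-B with sections centred. AW356013 turned to 0.017 in supplemental UV-B with the second label and to 0.025 on lines of both orders, and to -0.14 in Confite and Mishca without centring. With against without UV-B, leaving out an array gave -0.45 to 0.023 for AW313328 and -0.12 to 0.015 for AW258120 copy 2, which weights moved to 0.0044; none of these was called.

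Counts of called probes moved more. The 1485 in solar UV-B became 652 without centring, 11 without the channel term, 288 with the block, 2290 with weights, 653 and 983 on lines of both orders without and with sections centred, 0 with turned ratios (379 unadjusted, 53 by the second label), and 809 to 2567 without an array. The 1504 in supplemental UV-B became 879 when scaled, 2814 with repeated columns as arrays, 184 and 577 on lines of both orders, 0 without the channel term (824 unadjusted) or with turned ratios (1301 unadjusted; 176 by the second label), and 733 to 1485 without an array. The 34 in Confite and Mishca became 0 (167 unadjusted) to 120, and 6 to 58 without an array. The 1368 of the other landraces became 885 without the channel term and 580 with the block, and their 0 with against without UV-B became up to 7, or 10 without an array.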
